A study of Homo sapiens with 10 samples.

Results

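The genes followed here are 9 components of the fibroblast growth factor (FGF) pathway: the receptors FGFR1, FGFR3 and FGFR4, the ligand FGF2, the ligand carrier FGFBP1, and the feedback inhibitors SPRY1, SPRY2, SPRY4 and DUSP6. They were found by symbol, and each matched 1 of the 23170 gene entries and together 24 of the 37557 isoform entries of the deposited tables. RNA-seq had been performed on 10 samples of 4 lines that go back to PC3, a line established from human prostate cancer. PC3-Epi (2 samples) is a luciferase-expressing population picked for bright luminescence and epithelial shape. PC3-EMT14 (3 samples) is a mesenchymal population isolated after PC3-Epi had been grown together with macrophages made by IL4 treatment of CD14+ monocytes. Lentiviral overexpression of the zinc finger transcription factors OVOL1 and OVOL2 in PC3-EMT14 gave the lines PC3-EMT14-OVOL1 (3 samples) and, for the second factor, PC3-EMT14-OVOL2 (2 samples), so all 3 mesenchymal-derived groups go back to 1 isolated population. The 2 OVOL genes were carried by different constructs. OVOL2 was cloned into a lentiviral vector with a V5 tag, whereas the OVOL1 overexpression construct was purchased. The study describes PC3-EMT14 as the parental line, so transduction itself and the OVOL genes cannot be told apart.

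For each line the authors deposited 1 FPKM value per table, pooled over the samples of that line (FPKM: fragments scaled to transcript length and to library size). From these pooled values a difference between lines cannot be set against the spread between samples. The authors' own test results were not used, so no SD or test is given. Below, "past 2-fold" means a ratio of FPKM values of at least 2 or at most 0.5 with at least 1 FPKM in the higher line. Genes at 0 in 1 line count as past 2-fold but have no ratio. Shares of genes with a lower or higher ratio, and medians over all genes, leave them out. Between the OVOL lines 12113 of 12188 genes remain, and in PC3-Epi 12344 of 12441. Depth per sample is unknown. The 3 tables that hold PC3-EMT14 were scaled apart, and its values differed between them by a near-constant factor with a median of 1.01 to 1.03, so a ratio is taken within 1 table only, and levels set side by side across tables carry that shift. All 3 comparisons against PC3-EMT14 share its samples. The authors' labels of PC3-EMT14 and the OVOL lines end in "II_trim", whereas that of PC3-Epi is "pc3". What this difference in labels stands for is not given, and it cannot be told apart from the difference between PC3-Epi and the other lines.

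The transduced genes followed the labels. OVOL1 went from 0.0238 FPKM in PC3-EMT14 up to 11.3 FPKM in the OVOL1 line, and OVOL2 from 0.370 FPKM up to 831 FPKM in the OVOL2 line. PC3-Epi had 4.25 FPKM of OVOL1 and 9.91 FPKM of OVOL2, so the OVOL2 line stood far above the epithelial line for its own factor and the OVOL1 line less so. CDH1, the epithelial adhesion molecule E-cadherin, had 0.981 FPKM in PC3-EMT14, 16.2 FPKM with OVOL1, 39.2 FPKM with OVOL2 and 50.6 FPKM in PC3-Epi. ZEB1, a repressor of epithelial genes, ran the other way, with 7.43 FPKM in PC3-EMT14, 4.25 FPKM with OVOL1, 1.77 FPKM with OVOL2 and 0.130 FPKM in PC3-Epi. Not every marker kept this order, and members that departed from it are given at the end.

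FGF ligands bind receptor tyrosine kinases together with heparan sulfate, and the activated receptor signals through the adaptor FRS2 to RAS and the kinases ERK1 and ERK2. ERK activity in turn induces its own brakes: Sprouty (SPRY) and SPRED proteins act on the path to RAS and RAF, and dual-specificity phosphatases such as DUSP6 remove phosphate from ERK itself. FGF receptors are known for roles in prostate development and in epithelial plasticity. In some of these receptors, though not in all, alternative splicing of the ligand-binding domain differs between epithelial and mesenchymal cells.

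The sequences below are the 250 bases before the RefSeq start of the genes with the widest range of level over the 4 lines after FGFR1 (FGFBP1, DUSP6 and SPRY4), and of FGFR4, the 1 gene in which a searched motif was found. They were read from RefSeq promoter windows and placed on hg19, the build of the deposited tables, by exact match, and each runs 5′ to 3′ on the strand of its gene, with capitals for the motif.
FGFBP1 (chr4:15940364-15940613, minus strand): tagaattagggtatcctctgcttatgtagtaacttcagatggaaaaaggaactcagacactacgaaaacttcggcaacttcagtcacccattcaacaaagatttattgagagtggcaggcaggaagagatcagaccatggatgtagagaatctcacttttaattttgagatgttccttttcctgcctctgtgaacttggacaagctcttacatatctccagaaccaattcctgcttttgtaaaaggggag
DUSP6 (chr12:89746279-89746528, minus strand): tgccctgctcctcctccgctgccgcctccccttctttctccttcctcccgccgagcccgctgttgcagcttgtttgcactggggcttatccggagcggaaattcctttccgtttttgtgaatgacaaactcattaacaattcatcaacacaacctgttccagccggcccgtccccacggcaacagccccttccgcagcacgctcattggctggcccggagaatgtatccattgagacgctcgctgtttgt
SPRY4 (chr5:141703813-141704062, minus strand): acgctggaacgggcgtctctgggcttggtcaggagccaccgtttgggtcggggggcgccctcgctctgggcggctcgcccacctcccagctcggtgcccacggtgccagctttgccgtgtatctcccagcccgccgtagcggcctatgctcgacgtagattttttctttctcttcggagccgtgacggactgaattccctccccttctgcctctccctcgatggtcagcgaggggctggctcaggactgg
FGFR4 (chr5:176513666-176513915, plus strand): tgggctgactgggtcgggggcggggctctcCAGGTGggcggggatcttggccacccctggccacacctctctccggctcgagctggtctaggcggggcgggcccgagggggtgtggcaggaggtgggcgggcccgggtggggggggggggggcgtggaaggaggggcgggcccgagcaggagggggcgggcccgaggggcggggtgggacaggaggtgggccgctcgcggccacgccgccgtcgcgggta
2 motifs were searched on both strands. These were CACCTG, the E-box bound by ZEB1, which reads CAGGTG on the opposite strand, and the core of OVOL sites, spelled CCGTTA. The OVOL2 consensus given by the study allows other letters at the first 2 bases of this core, and those spellings were not searched. Among 12 windows of 8 of the genes, the E-box occurred in 1, at 220 bases before the FGFR4 start, and the OVOL core in 0. Over all 35116 RefSeq windows of this length, 17.5% held the E-box and 2.45% the OVOL core. These matches describe letters in a short window and say nothing of binding elsewhere. FGFR1 was not searched, and no window of it was used here. The 6 windows of SPRY1, SPRY2 and SPRY4 held neither motif. The deposited entry of SPRY4 begins 808 bases before the RefSeq start used here, so its window lies inside that entry, whereas the FGFBP1 window lies wholly before the deposited entry, whose start is 392 bases further on.

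FGFR1, a receptor tyrosine kinase (chr8:38268656-38326352, hg19, minus strand), had the widest range of the set. It was at 11.1 to 11.5 FPKM in PC3-EMT14 over the 3 tables, 8.27 FPKM in PC3-EMT14-OVOL1, 5.27 FPKM in PC3-EMT14-OVOL2 and 1.62 FPKM in PC3-Epi. The levels thus stepped down from the mesenchymal line through OVOL1 and OVOL2 to the epithelial line. Relative to PC3-EMT14, FGFR1 was 7.11-fold lower in PC3-Epi, 2.12-fold lower with OVOL2 and 1.36-fold lower with OVOL1. The call with OVOL2 is lost when 1 FPKM is added to both values, at a log2 ratio of -0.95. In PC3-Epi 1.61% of genes of at least 1 FPKM that have a ratio had a lower one than FGFR1, and with OVOL2 2.19% had. In these bulk samples, fewer cells that express a gene and less RNA of it per cell cannot be told apart.

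FGFR4, the other receptor of the set above 1 FPKM (chr5:176513921-176525126, plus strand), did not share this order. It was at 10.8 to 11.2 FPKM in PC3-EMT14, 15.7 FPKM with OVOL1, 14.7 FPKM with OVOL2 and 10.6 FPKM in PC3-Epi. Both OVOL lines were above both other lines, by 1.44-fold and 1.36-fold over PC3-EMT14, and neither ratio was past 2-fold. FGFR3 (chr4:1795039-1810599, plus strand) was at 0.0551 FPKM or less in all 4 lines, and no fold is given for it. FGFR1 and FGFR4 were at near-equal levels in PC3-EMT14, while in PC3-Epi FGFR4 stood at 10.6 FPKM against 1.62 FPKM for FGFR1. FGFRL1, a receptor-like protein without a kinase domain, was at 13.6 to 17.2 FPKM and under 2-fold in all 4 comparisons, and FGFR2 reached 0.0413 FPKM at most.

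**Figure D1:**
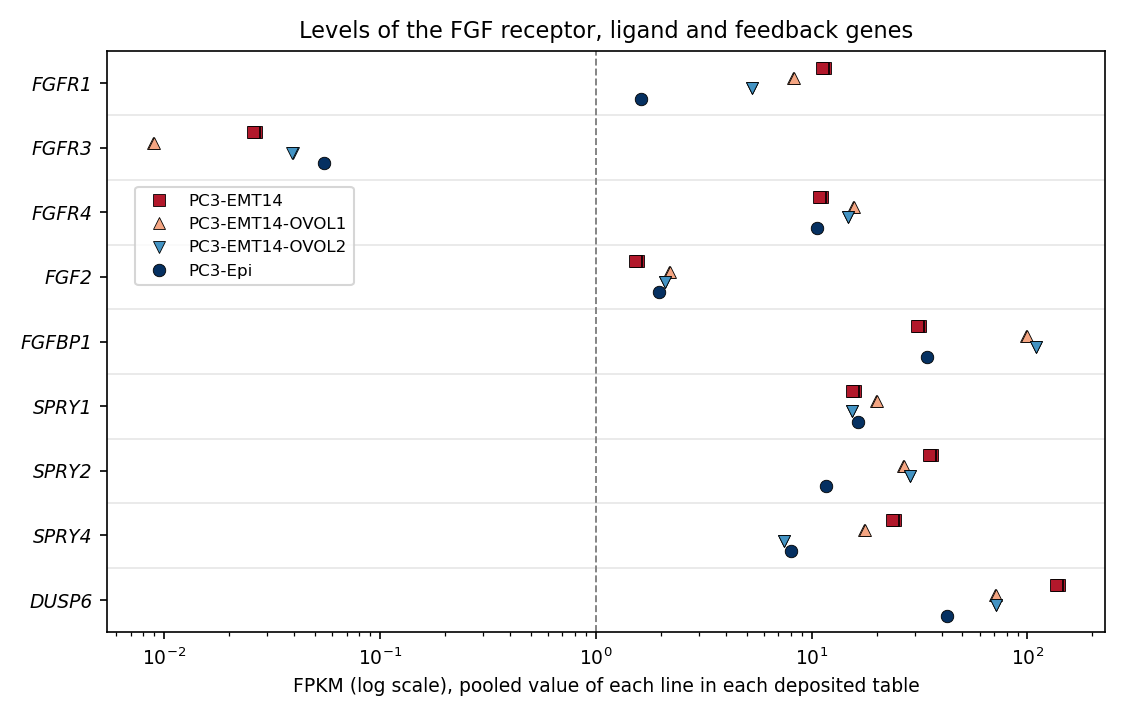
Level of each of the 9 genes in the 4 lines, in FPKM on a log axis; each symbol is the authors' pooled value of a line in 1 table, so PC3-EMT14 (squares) appears in 3 tables and each OVOL line (triangles) in 2, nearly on top of each other, and the dashed line marks 1 FPKM. FGFR1 runs from 11.5 FPKM in the mesenchymal line down to 1.62 FPKM in the epithelial line, FGFBP1 stands apart in the OVOL lines, and FGFR3 is far below 1 FPKM throughout.

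FGF2, a broadly acting ligand, was low in all lines. It was at 1.52 to 1.56 FPKM in PC3-EMT14, 2.20 FPKM with OVOL1, 2.09 FPKM with OVOL2 and 1.97 FPKM in PC3-Epi, and no ratio was past 2-fold. The deposited FGF2 entry (chr4:123747863-123844123, plus strand) extends over the antisense gene NUDT6, which is listed with the same interval at 3.80 to 4.54 FPKM over the 4 lines. Whether fragments were counted by strand is not given in the sources used here, so fragments of the 2 genes cannot be told apart and the FGF2 values are uncertain.

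FGFBP1 (chr4:15937193-15939971, minus strand), a secreted protein that releases FGF2 from the extracellular matrix, was the 1 member higher with the OVOL factors past 2-fold. It was at 30.7 to 31.7 FPKM in PC3-EMT14, 99.8 FPKM with OVOL1, 109 FPKM with OVOL2 and 34.4 FPKM in PC3-Epi. The OVOL lines thus stood 3.22-fold and 3.57-fold above PC3-EMT14, while the epithelial line was at 1.09-fold of it. With OVOL1, 1.02% of genes of at least 1 FPKM that have a ratio had a higher one than FGFBP1, and with OVOL2, 1.77% had. The direct comparison of the OVOL lines gave 98.7 FPKM with OVOL1 and 109 FPKM with OVOL2, a log2 ratio of 0.15.

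Among the Sprouty genes, which restrain signalling from receptor tyrosine kinases to RAS, each had its own order. SPRY1 (chr4:124317956-124324909, plus strand) was at 15.4 to 15.9 FPKM in PC3-EMT14, 20.1 FPKM with OVOL1, 15.5 FPKM with OVOL2 and 16.4 FPKM in PC3-Epi, and was under 2-fold in all 4 comparisons. SPRY2 (chr13:80910112-80915086, minus strand) was at 35.1 to 36.2 FPKM in PC3-EMT14, 26.9 FPKM with OVOL1, 28.6 FPKM with OVOL2 and 11.6 FPKM in PC3-Epi. It was lower past 2-fold in PC3-Epi alone among the 4 comparisons, by 3.11-fold, and both OVOL lines lay nearer to PC3-EMT14.

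SPRY4 (chr5:141689992-141704620, minus strand) separated the OVOL lines. It was at 23.5 to 24.2 FPKM in PC3-EMT14, 17.6 FPKM with OVOL1, 7.42 FPKM with OVOL2 and 8.04 FPKM in PC3-Epi. The OVOL2 line was at the level of PC3-Epi and the OVOL1 line nearer to PC3-EMT14. Relative to PC3-EMT14, SPRY4 was 3.16-fold lower with OVOL2 and 1.35-fold lower with OVOL1, and in the table that compares the OVOL lines directly SPRY4 was 2.35-fold lower with OVOL2. Of genes of at least 1 FPKM there that have a ratio, 0.553% had a lower one.

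DUSP6, the cytoplasmic phosphatase of ERK1 and ERK2 (chr12:89741837-89746296, minus strand), was the most abundant of the 9 genes in PC3-EMT14. It was at 136 to 141 FPKM there, 71.7 FPKM with OVOL1, 71.4 FPKM with OVOL2 and 42.2 FPKM in PC3-Epi. The OVOL lines were level with each other, between the mesenchymal and the epithelial line. DUSP6 was 3.34-fold lower in PC3-Epi, and at 1.92-fold and 1.91-fold lower it was just short of 2-fold with OVOL1 and OVOL2. With OVOL1, 1.46% of genes of at least 1 FPKM that have a ratio had a lower one than DUSP6.

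Counted over the set, 8 of the 9 genes reached 1 FPKM in each comparison. In PC3-Epi against PC3-EMT14, 4 were lower past 2-fold (FGFR1, SPRY2, SPRY4 and DUSP6), where 8.34% of 12441 genes were, and 0 were higher, where 7.37% of genes were. With OVOL1, 1 was higher (FGFBP1), against 2.43% of 12197 genes, and 0 were lower, against 1.54%. With OVOL2, 1 was higher (FGFBP1), against 4.42% of 12307 genes, and 2 were lower (FGFR1 and SPRY4), against 2.93%. Between the OVOL lines, 1 was lower with OVOL2 (SPRY4), against 1.17% of 12188 genes, and 0 were higher, against 1.90%.

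The median log2 ratio of the 8 genes was -0.83 in PC3-Epi, where that of all genes was -0.014. It was -0.017 with OVOL1, -0.14 with OVOL2 and -0.070 between the OVOL lines, where all genes had -0.0018, -0.040 and -0.040. The median size of the log2 ratio regardless of sign was 0.96 in PC3-Epi, 0.48 with OVOL1, 0.70 with OVOL2 and 0.13 between the OVOL lines, against 0.36, 0.15, 0.21 and 0.15 over all genes. The median size was thus above that of all genes in the 3 comparisons with PC3-EMT14 and below it between the OVOL lines. The genes were named with earlier results of these data known, so these medians are a description.

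**Figure D2:**
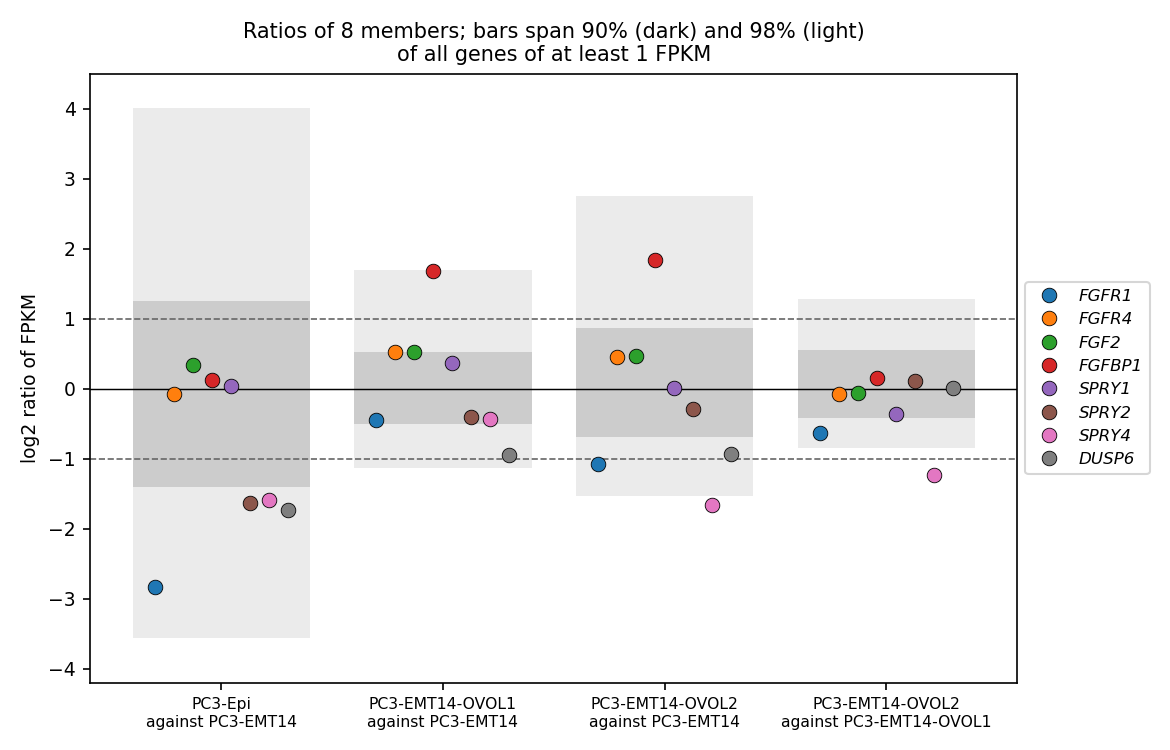
The log2 ratio of FPKM in each of the 4 comparisons for the 8 genes of at least 1 FPKM (points). Bars span 90% (dark) and 98% (light) of genes of at least 1 FPKM that have a ratio, and dashed lines mark 2-fold. FGFBP1 is at 1.69 and 1.84 with OVOL1 and OVOL2 and at 0.12 in PC3-Epi, and SPRY4 is at -1.66 with OVOL2 and -0.43 with OVOL1.

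A wider list of 65 FGF signalling genes by role, which includes the 9, placed them in the pathway. In PC3-Epi 37 of the 65 reached 1 FPKM, of which 2 were higher and 11 lower past 2-fold, where 7.37% and 8.34% of all genes were, and the 7 lower genes outside the set were FGF1, FGF5, SHC1, SPRED1, SPRED3, DUSP5 and ETV1. With OVOL1, 36 reached 1 FPKM, with 1 higher and 2 lower, against 2.43% and 1.54% of all genes. With OVOL2, 36 reached it, with 1 higher and 4 lower, against 4.42% and 2.93%. Between the OVOL lines 35 did, with 1 higher and 1 lower, against 1.90% and 1.17%, so counts of 1 here are close to the share of all genes. The median log2 ratio of the listed genes was -0.35 in PC3-Epi, -0.13 and -0.16 with OVOL1 and OVOL2, and -0.12 between the OVOL lines.

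Of 22 listed members of the FGF ligand family, 4 reached 1 FPKM in a line and 18 did not, 3 of which were listed at 0 in all lines. The 4 were the secreted ligands FGF1, FGF2 and FGF5 and a homologous factor that acts inside the cell and is not a classical receptor ligand, FGF13. FGF1, a ligand of all FGF receptors, was at 1.85 to 1.91 FPKM in PC3-EMT14, 0.531 FPKM with OVOL1, 0.323 FPKM with OVOL2 and 0.611 FPKM in PC3-Epi. It was lower past 2-fold in each of the 3 lines, by 3.52-fold, 5.73-fold and 3.12-fold in that order, though at levels close to the 1 FPKM limit. FGF5, a secreted ligand known as a brake on hair growth, was 3.10-fold lower in PC3-Epi (0.888 FPKM) than in PC3-EMT14 (2.76 FPKM) and under 2-fold with OVOL1 and OVOL2.

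The carriers and co-receptors showed no common direction. FGFBP3, a relative of FGFBP1, reached 1.59 FPKM in PC3-Epi from 0.515 FPKM in PC3-EMT14, and was under 1 FPKM in both OVOL lines. FLRT3, a membrane protein that binds FGF receptors, was 2.18-fold lower with OVOL1 (1.25 FPKM) than in PC3-EMT14 (2.73 FPKM), but at 2.79 FPKM with OVOL2 and 2.37 FPKM in PC3-Epi. Directly compared, FLRT3 was 2.24-fold higher with OVOL2 than with OVOL1, so FLRT3 and SPRY4 were the 2 listed genes past 2-fold between the OVOL lines.

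All 10 listed adaptors and relay proteins reached 1 FPKM, and 9 of them were under 2-fold in PC3-Epi and all 10 under 2-fold in the other comparisons, which is close to the shares of all genes (8.34% lower in PC3-Epi). The exception was SHC1, an adaptor that links receptors to GRB2, which had 77.2 FPKM in PC3-EMT14 and was 2.84-fold lower, at 27.2 FPKM, in PC3-Epi. SHC1 was at 62.9 FPKM with OVOL1 and 47.2 FPKM with OVOL2. The median log2 ratio of the 10 was -0.35 in PC3-Epi, -0.17 with OVOL1, -0.27 with OVOL2 and -0.19 between the OVOL lines.

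The feedback inhibitors held 6 of the 11 lower genes in PC3-Epi. Of 11 listed, 10 reached 1 FPKM, and 6 of these were lower and 1 higher past 2-fold, with a median log2 ratio of -1.30, where 8.34% of all genes were lower and 7.37% higher. Of the 6 not among the 9, 3 were lower and the median was -1.01, but these too were listed with earlier results known. The lower genes were SPRY2, SPRY4 and DUSP6 from the 9, and SPRED1, SPRED3 and DUSP5. SPRED1, which restrains RAS, had 20.8 FPKM in PC3-EMT14 against 10.1 FPKM in PC3-Epi, and at 9.95 FPKM with OVOL2 it was also lower, by 2.03-fold. DUSP5, a nuclear phosphatase of ERK, had 169 FPKM in PC3-EMT14 against 56.9 FPKM in PC3-Epi, whereas it was at 215 FPKM with OVOL1 and 147 FPKM with OVOL2. SPRED3 had 2.43 FPKM in PC3-EMT14 against 0.796 FPKM in PC3-Epi. IL17RD (Sef), a membrane antagonist of FGF signalling, was the 1 higher gene, with 2.99 FPKM in PC3-EMT14 against 8.73 FPKM in PC3-Epi.

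With OVOL1, 0 of the 10 inhibitors were past 2-fold, where 2.43% of all genes were higher and 1.54% lower, and with OVOL2, 2 were lower (SPRY4 and SPRED1), where 2.93% were. The log2 ratio of SPRED1 with OVOL2 was -1.02, and centred on the median of all genes it was -0.98, under 2-fold. Their median log2 ratio was -0.32 with OVOL1 and -0.36 with OVOL2. Of 9 listed transcriptional targets of the pathway, 7 reached 1 FPKM, and ETV1, an ETS factor, was the 1 past 2-fold, 2.11-fold lower in PC3-Epi (4.70 FPKM) than in PC3-EMT14 (9.91 FPKM), and 1 of 7 is close to the 8.34% of all genes. The 2 listed genes nearest to 2-fold without reaching it, picked after their values were seen, were the ERK phosphatase DUSP4, 1.97-fold lower in PC3-Epi, and the target IER3, 1.97-fold higher with OVOL2.

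**Figure D3:**
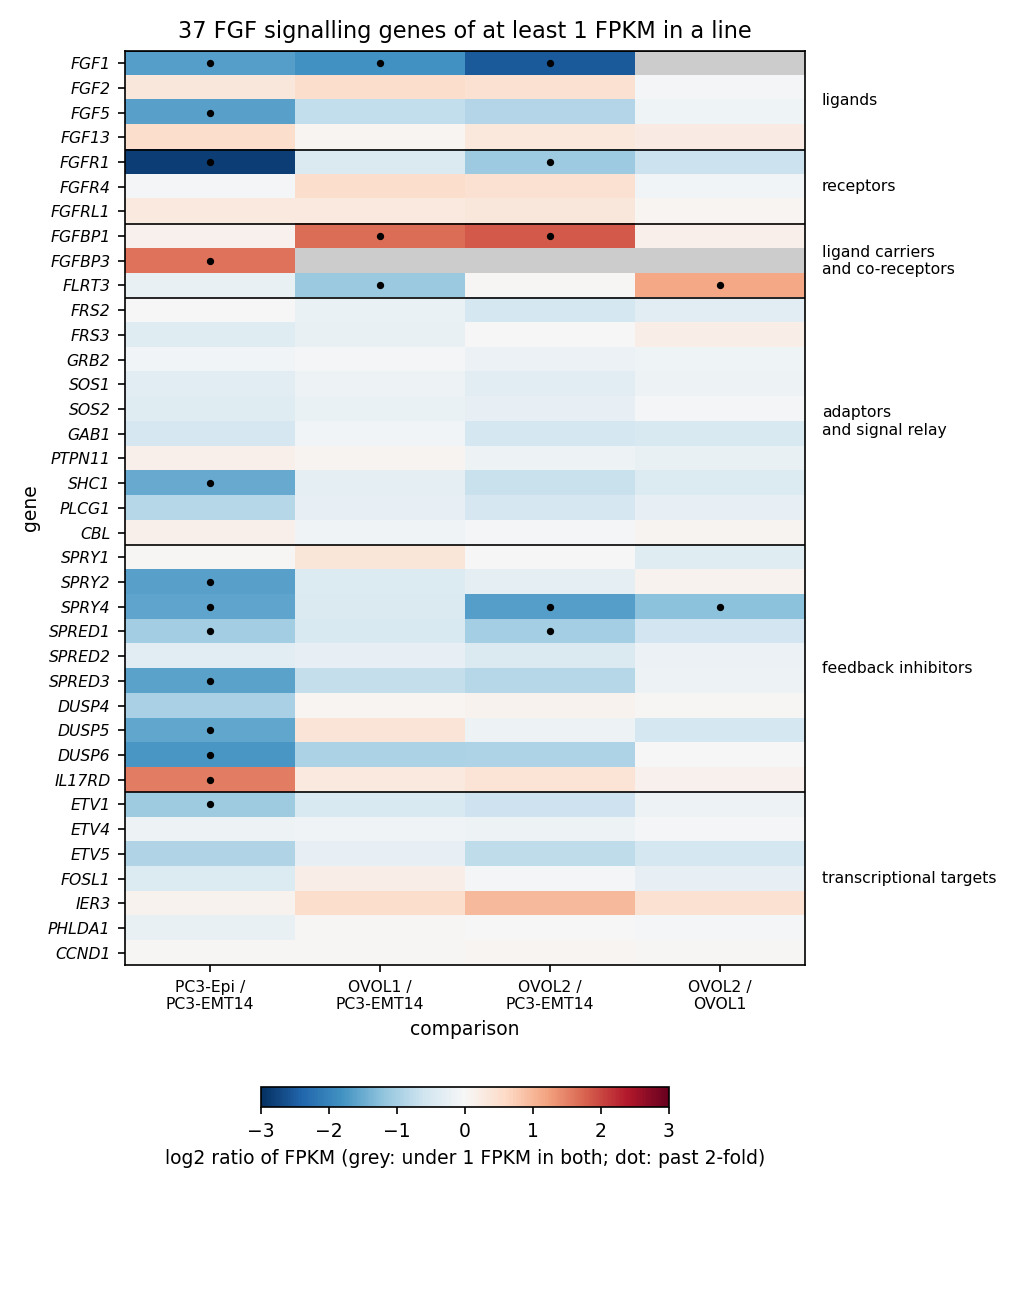
Log2 ratio of FPKM in the 4 comparisons (columns) for the 37 listed genes of at least 1 FPKM in a line (rows, by role), with red for higher, blue for lower, grey where both lines were under 1 FPKM and dots for ratios past 2-fold. The PC3-Epi column holds 13 dots, 6 of them blue among the feedback inhibitors, against 3 in the OVOL1 column and 5 in the OVOL2 column.

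The isoform entries of a gene share fragments, so their values are estimates by the authors' software, and they carry the locus of the gene without exons, so which exons differ was not analysed here. The 9 genes had 24 entries, of which 14 reached 1 FPKM in a line, and FGF2, FGFBP1 and SPRY2 had 1 entry each. Among entries of at least 1 FPKM in one of the lines compared, a share that differed by at least 10 percentage points was found for FGFR1 and for no other of the 9 genes. For FGFR1 it was found with OVOL1, with OVOL2 and between the OVOL lines, and not in PC3-Epi. Entries of FGFR3, all at 0.0551 FPKM or less, were not read. Over all genes of at least 1 FPKM with several entries, such a difference occurred in 18.6% in PC3-Epi, 10.1% with OVOL1, 16.3% with OVOL2 and 12.6% between the OVOL lines. Apart from FGFR3, the genes with several entries were FGFR1, FGFR4, SPRY1, SPRY4 and DUSP6. Among so few genes, 1 with such a difference cannot be told apart from these shares.

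The main FGFR1 entry, TCONS_00034030, took 55.8% of the gene in PC3-EMT14 and 52.9% in PC3-Epi, against 67.0% with OVOL1 and 72.1% with OVOL2. The next entry, TCONS_00034024, was at 2.64 to 2.72 FPKM in PC3-EMT14 and was listed at 0 with OVOL2, while it was at 2.08 FPKM with OVOL1 and 0.378 FPKM in PC3-Epi. Its share was 23.7% in PC3-EMT14, 25.1% with OVOL1 and 23.4% in PC3-Epi. These 2 entries thus kept near-equal shares in PC3-EMT14 and PC3-Epi and not with OVOL2. The authors' software marked the first as not tested with OVOL2, and the second as not tested with OVOL1 and in PC3-Epi. Of the smaller entries, TCONS_00034026 took 10.9% in PC3-EMT14 and 5.72% in PC3-Epi, and TCONS_00034023 took 0.763% and 10.4%, at 0.169 FPKM or less in these 2 lines. Another entry, TCONS_00034029, chosen after its values were seen and under 1 FPKM throughout, was listed at 0 with OVOL1 and took 18.5% of the gene with OVOL2.

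Under the limit of 10 points, and picked after their values were seen, were 2 minor entries. The minor DUSP6 entry, TCONS_00008816, was higher with OVOL2 and in PC3-Epi, where its gene was lower. It was at 0.796 FPKM in PC3-EMT14, 2.29 FPKM with OVOL2 and 2.28 FPKM in PC3-Epi, while the main entry, TCONS_00008815, was at 135 FPKM, 69.1 FPKM and 39.9 FPKM in the same lines. With OVOL1 the minor entry was at 0.729 FPKM and the main entry at 71.0 FPKM, both lower than in PC3-EMT14. The authors' software marked the main entry as not tested in all 4 comparisons. The minor entry made up 0.584% of DUSP6 in PC3-EMT14 and 5.40% in PC3-Epi, and 1.02% with OVOL1 and 3.21% with OVOL2. The minor SPRY1 entry, TCONS_00025404, had 0.685 FPKM in PC3-EMT14 against 1.19 FPKM with OVOL2, or 4.45% and 7.67% of the gene. FGFR4 kept its main entry at 57.2% to 65.8% of the gene in all 4 lines.

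**Figure D4:**
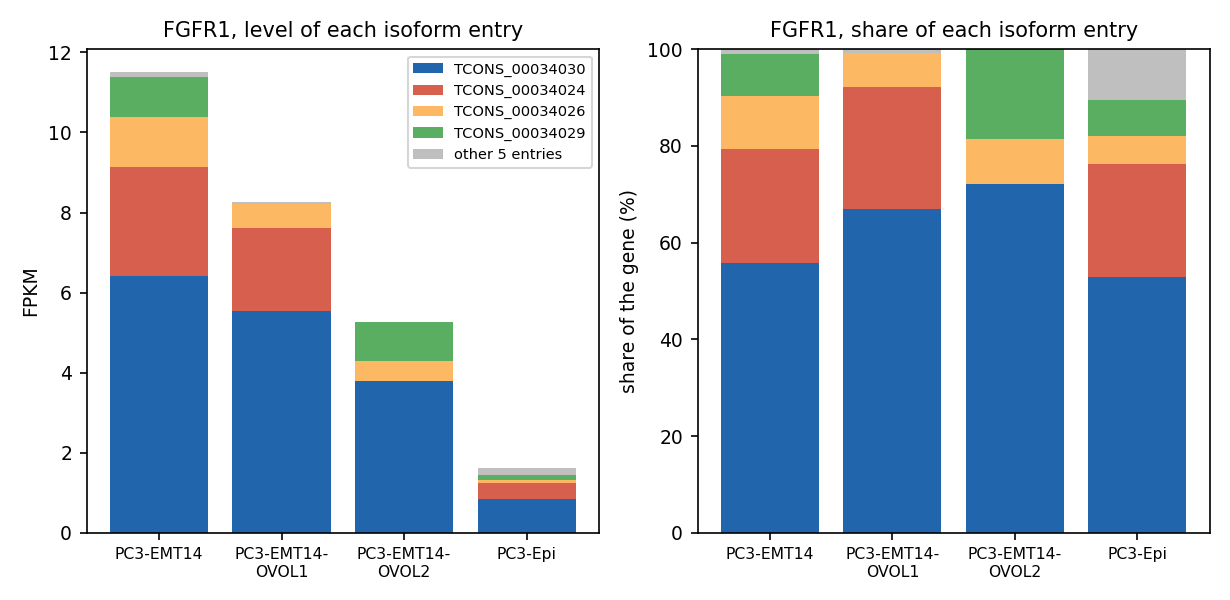
FGFR1 isoform entries in the 4 lines, as FPKM stacked to the gene total (left) and as percent of the gene (right); PC3-EMT14 is drawn from the table with PC3-Epi, and the other 5 entries are summed in grey. The entry TCONS_00034024, 23.6% of the gene in PC3-EMT14, is at 0 in the PC3-EMT14-OVOL2 bar, and the PC3-Epi bar, short on the left, holds 10.4% of grey on the right (all 1 entry, TCONS_00034023) against 1.08% in PC3-EMT14.

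For the 3 genes with the widest range, the genes with the most similar pattern were taken as the nearest in the 3 log2 ratios against PC3-EMT14, by Euclidean distance over the 4 lines among 12428 genes. Nearest to FGFR1 were S100G at a distance of 0.029, NOVA1 at 0.18 and CLGN at 0.27. CLGN, a chaperone of the endoplasmic reticulum, was at 25.8 FPKM in PC3-EMT14, 16.1 FPKM with OVOL1, 10.9 FPKM with OVOL2 and 3.29 FPKM in PC3-Epi, whereas S100G reached only 1.46 FPKM. Nearest to FGFBP1 were ZC3H12A, a ribonuclease that limits inflammatory mRNAs, at 0.16, TMOD1 at 0.32 and FABP6 at 0.46. Nearest to DUSP6 were GPER at 0.077, BEND5 at 0.20 and PAQR8 at 0.20, all at 3.38 FPKM or less in PC3-EMT14 against 141 FPKM for DUSP6. The likeness rests on 4 lines and says nothing of shared function or control.

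Because PC3-EMT14 came from a culture with macrophages, markers of that cell type were examined. Of 14 macrophage markers, 13 were under 1 FPKM in all lines, 2 of these, C1QA and C1QB, were listed at 0, and the summed level of 54.5 FPKM in PC3-EMT14, 13.7 FPKM in PC3-Epi, 51.8 FPKM with OVOL1 and 58.4 FPKM with OVOL2 was nearly all CD68, a lysosomal protein not limited to macrophages. The defining markers PTPRC, CSF1R and CD163 were at 0.0921 FPKM or less. All 6 epithelial markers and all 4 mesenchymal markers reached 1 FPKM in some line. The 6 epithelial markers summed to 912 FPKM in PC3-EMT14, 1024 FPKM with OVOL1, 1585 FPKM with OVOL2 and 1756 FPKM in PC3-Epi, led by KRT19, and the 4 mesenchymal markers to 333, 219, 105 and 87.7 FPKM, led by VIM. Members of both lists departed from the order of the sums. KRT19 had 671 FPKM in PC3-EMT14 against 742 FPKM in PC3-Epi, but 608 FPKM with OVOL1 and 862 FPKM with OVOL2. FN1 had 36.8 FPKM in PC3-EMT14 against 33.8 FPKM in PC3-Epi, but 18.4 FPKM with OVOL1 and 16.5 FPKM with OVOL2, and CDH2 was lowest with OVOL2, at 10.1 FPKM against 11.3 FPKM in PC3-Epi. Of 3 prostate luminal markers, KLK3, which encodes prostate-specific antigen, was listed at 0 in all lines.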

How the data were processed

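RNA-seq of 10 samples in 4 groups was compared in 4 pairs of groups. The authors used TopHat to place paired-end reads on the hg19 transcriptome of UCSC, and Cuffdiff with upper-quartile scaling, scaling to transcriptome-compatible hits, multi-read correction and bias correction. The submitters' processing notes name FastQC, Cufflinks, Cuffdiff and hg19. The deposited FPKM values are pooled by the authors into 1 value per group and table. The tables also hold the authors' fold changes, test statistics, p-values and q-values, which were not used. No column of values per sample was left unused (0 columns).

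Ratios were computed from the FPKM values within a table, without a pseudocount, in Python 3.11.15 with numpy 2.4.6 and pandas 2.3.3, and plotted with matplotlib 3.10.9. A gene counted as past 2-fold at a ratio of at least 2 or at most 0.5 with at least 1 FPKM in the higher group, and a gene at 0 in 1 group counted without a ratio. The counting was tested on simulated data with 200 changed genes, without noise and with centring on the median. No changed gene was at 0 or under 1 FPKM, so the test covers the arithmetic only and not the uncentred setting used here. Where a symbol had several entries, that on a main chromosome was used, and for SPRY3 that on chromosome X. Positions are on hg19, counted from 1, and strands and overlaps come from GENCODE on that build.

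The 9 genes, the list of 65 genes, the markers and the comparisons were chosen with earlier results of these data known. Some of the markers are not reported here. The genes named are the 9, the listed genes past 2-fold in at least 1 comparison, and the 3 nearest genes to each of the 3 genes of widest range. Other genes were named outside this rule after their values were seen, among them FGFRL1, FGFR2, FGF13, NUDT6, DUSP4 and IER3. Other fold limits, FPKM limits, pseudocounts, centring on the median and a restriction to gene entries the authors' software marked as testable were tried. Depth per sample is unknown, so no interval or detection limit was computed.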

Additional observations from a re-analysis of the deposited data

How the results depend on the processing

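No paired analysis was possible because the deposited values are pooled over the samples of a group, and for the same reason leaving out a replicate could not be run. The 32 log2 ratios of the 8 genes above 1 FPKM kept their sign under both pseudocounts and centring on the median of all genes (a shift of at most 0.040). The restriction to testable gene entries could change none of them, as all 8 genes were marked testable. A pseudocount of 0.1 FPKM moved no ratio by more than 0.074, but 1 FPKM moved them by up to 0.57, with FGFR1 in PC3-Epi going from -2.83 to -2.26. FGFR1 with OVOL2 crossed below 2-fold with a pseudocount of 1 FPKM, at a log2 ratio of -0.95. Taking OVOL2 against OVOL1 as the difference of the 2 log2 ratios against PC3-EMT14 moved no ratio by more than 0.00022. This follows from the near-constant factor between tables, as the pooled values are the same, and is no separate check.

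Counts were sensitive to the limits, and so were the shares of all genes under the same limits. At 4-fold, 1 of the 9 genes passed in PC3-Epi, and 0 with OVOL1, 0 with OVOL2 and 0 between the OVOL lines, where 6.45%, 1.75%, 2.73% and 0.935% of all genes did. At 1.5-fold, 4 of the 9 passed in PC3-Epi, 2 with OVOL1, 4 with OVOL2 and 2 between the OVOL lines. The shares of all genes at that limit were 31.5%, 8.80%, 15.0% and 7.47% in that order. Without the FPKM limit FGFR3 was added with OVOL1 and between the OVOL lines, making 2 in each. It was also added in PC3-Epi, making 5, where it was the 1 higher gene against 0 with the limit. Of the 65 listed genes, 16 passed 1.5-fold in PC3-Epi, 6 with OVOL1, 12 with OVOL2 and 3 between the OVOL lines, against the same shares. Without the FPKM limit 29 passed 2-fold in PC3-Epi, 11 with OVOL1, 14 with OVOL2 and 10 between the OVOL lines, where 30.7%, 17.9%, 20.9% and 16.1% of all genes above 0 did. With a limit of 5 FPKM 1 passed with OVOL1 and 1 between the OVOL lines (2.62% and 2.34% of all genes). Centring moved the split with OVOL2 from 1 higher and 4 lower to 2 higher and 3 lower, as SPRED1 went to -0.98 and IER3 to 1.01.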
